A study of Mus musculus with 2 samples.

Results

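The peaks described here are weak H3K27ac peaks of mouse macrophages that appeared in the authors' replicated list, made from both libraries together, and that overlapped no peak called in either library alone. They number 3885 of the 32877 peaks of that list, or 11.8%. Members were chosen by measured values, namely the absence of any overlap of at least 1 bp with the 29543 peaks of replicate 1 and the 29345 peaks of replicate 2. Because that choice rests on peak calling in the same libraries, their fold, q-value, width and distance to replicate peaks are given as descriptions with no test. The cells were unstimulated bone-marrow-derived macrophages of the strain C57BL/6J, and their chromatin was precipitated with an antibody to H3K27ac. They form a single group of 2 biological replicates that carry the same donor entry, so they may share an animal. Sex was not collected, stage was unknown, and age was not collected or unknown, per the labels. For both libraries the starting quantity was 10 ng, and the labelled size range runs between 350 and 480, in a unit that is not stated. As a check of the cell type, all 8 macrophage markers examined, among them Csf1r, Spi1 and Adgre1, had a peak of each replicate within 1 kb of a coding start, and no marker of neutrophils, B cells, T cells, erythroid cells or fibroblasts did (0 of 17 genes). In longer lists of such genes, 4 of 20 neutrophil, 2 of 17 B cell, 3 of 20 T and NK cell, 4 of 15 erythroid and megakaryocyte and 0 of 18 fibroblast genes were marked in this way. So were 5 of 15 dendritic cell, 1 of 15 mast and stem cell and 0 of 15 neuronal genes.

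H3K27ac is an acetyl group on a lysine of the tail of histone H3, placed mainly by the coactivators p300 and CBP and removed by histone deacetylases. It is found on nucleosomes that flank active promoters and enhancers, while the start site itself is usually depleted of nucleosomes. In macrophages the lineage factors PU.1 and C/EBP, with AP-1 and RUNX proteins, open the enhancers that define the cell, and many genes of the inflammatory and interferon responses gain acetylation only after a stimulus.

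Sequence reaching 100 bases to either side of the summit, the position of highest enrichment, is shown for members that carry the results below: some of those at starts of inducible genes, and the members with the highest fold in introns and between genes. Positions are on GRCm38 (mm10), and all sequences are read on the forward strand of the RefSeq copy of that build. Capitals mark matches, on either strand, to 10 short words used as crude stand-ins for binding motifs: GGAAGT (PU.1 core), TGANTCA (AP-1), TTGCNNAA (C/EBP), GAAANNGAA (IRF and ISRE), TGTGGT (RUNX), GGANTTTCC (NF-kB), CACGTG (E-box), GCGCNTGCG (NRF1), CCANNAGG (CTCF core) and GGGCGG (SP and KLF). A match is a description and not a binding site.
Cxcl2 promoter chr5:90903681-90903881: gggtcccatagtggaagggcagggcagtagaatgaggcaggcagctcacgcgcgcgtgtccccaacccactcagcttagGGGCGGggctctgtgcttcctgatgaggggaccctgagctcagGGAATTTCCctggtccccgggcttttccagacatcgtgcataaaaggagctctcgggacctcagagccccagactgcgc
Dusp5 promoter chr19:53528634-53528834: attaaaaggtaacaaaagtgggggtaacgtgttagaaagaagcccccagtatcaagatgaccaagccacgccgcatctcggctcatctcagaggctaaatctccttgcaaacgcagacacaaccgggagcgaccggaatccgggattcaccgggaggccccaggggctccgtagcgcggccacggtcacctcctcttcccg
Il1a upstream chr2:129310492-129310692: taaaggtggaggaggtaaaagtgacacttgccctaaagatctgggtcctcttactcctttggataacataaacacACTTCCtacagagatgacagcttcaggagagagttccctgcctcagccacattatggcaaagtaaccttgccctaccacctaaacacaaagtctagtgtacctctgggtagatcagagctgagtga
Itgax upstream chr7:128129073-128129273: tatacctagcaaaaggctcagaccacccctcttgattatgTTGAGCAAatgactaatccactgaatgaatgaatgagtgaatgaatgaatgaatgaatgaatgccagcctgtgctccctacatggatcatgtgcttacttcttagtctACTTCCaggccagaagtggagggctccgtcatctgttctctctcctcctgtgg
Ciita internal start chr16:10487171-10487371: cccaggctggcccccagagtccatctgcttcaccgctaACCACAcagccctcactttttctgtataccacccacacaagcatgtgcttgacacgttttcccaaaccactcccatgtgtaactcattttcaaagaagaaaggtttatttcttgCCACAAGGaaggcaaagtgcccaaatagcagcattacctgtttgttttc
Pim1 gene body chr17:29494228-29494428: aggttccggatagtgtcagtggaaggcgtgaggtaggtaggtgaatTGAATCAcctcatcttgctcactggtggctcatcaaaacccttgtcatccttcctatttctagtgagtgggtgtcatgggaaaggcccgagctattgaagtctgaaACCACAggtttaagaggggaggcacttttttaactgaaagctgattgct
9030025P20Rik intron chr17:14990548-14990748: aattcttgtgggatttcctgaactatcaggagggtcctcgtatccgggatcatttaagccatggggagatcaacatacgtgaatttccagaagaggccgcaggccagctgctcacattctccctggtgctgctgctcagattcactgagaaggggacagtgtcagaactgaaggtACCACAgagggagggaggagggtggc
upstream of Mbnl1 chr3:60468914-60469114: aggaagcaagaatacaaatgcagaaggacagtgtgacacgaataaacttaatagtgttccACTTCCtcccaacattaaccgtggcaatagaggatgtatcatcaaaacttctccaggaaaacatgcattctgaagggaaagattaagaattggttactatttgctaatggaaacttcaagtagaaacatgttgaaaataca
The Cxcl2 window ends 11 bases into the gene and holds 1 NF-kB word and 1 GGGCGG word. The Dusp5 window holds none of the words, with 15 CpG dinucleotides and 57.7% GC. The Il1a window holds 1 PU.1 word, and the Itgax window holds 1 PU.1 word and 1 C/EBP word. The central 50 bases of the window in 9030025P20Rik occur at 2 places in the genome, whereas those of the other windows occur once.

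Members stood low in every deposited measure of strength, and many of their values repeat. The fold, a linear ratio over control or background given by the authors, had a median of 2.97 in members (range 1.57 to 5.01), against 8.44 in the 24487 peaks of the same list that overlapped a peak of both replicates. The q-value on the −log10 scale had a median of 6.40 in members (range 0.825 to 19.9), against 53.7 in peaks of both replicates. Of the members, 398 had a value of at least 10 on that scale and 17 a value under 2. Members were narrow, with a median width of 430 bp (quartiles 353 and 558 bp), against 1309 bp for peaks of both replicates, so they held 4.03% of the covered bases (1882.9 kb of 46.74 Mb). Only 271 distinct folds occurred among the 3885 members, 272 members shared the fold of 2.968, and 2179 members carried 1 of the 10 most frequent folds. Single members of equal fold therefore cannot be ranked by it.

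Low fold did not by itself make a peak a member. Below a fold of 2.5 the list held 410 peaks, of which 341 (83.2%) were members. From 2.5 to 3 the share was 71.6%, from 3 to 3.5 it was 41.8%, from 3.5 to 4 it was 16.8%, and from 5 to 5.5 it was 0.114%. Above 5.5 there was no member among 18436 peaks. In all, 9076 other peaks had a fold at or below the highest fold of a member. To set members beside peaks of like strength, 4521 other peaks with a fold between the members' 5th and 95th percentiles (2.36 to 3.90) are used below and called other peaks of like fold. Within that range their folds were still higher on the whole, with a median of 3.43, and their median width was 628 bp.

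**Figure D1:**
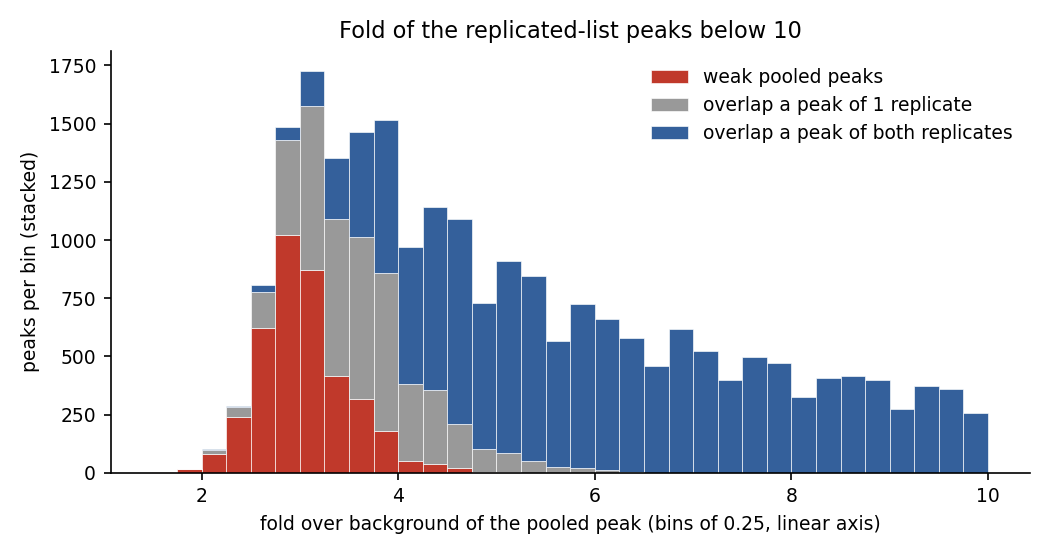
Number of replicated-list peaks per bin of deposited fold (linear axis, bins of 0.25, up to a fold of 10), stacked by whether the peak overlapped no replicate peak (weak pooled peaks), a peak of 1 replicate, or a peak of both. Members fill most bins below a fold of 3 and end at 5.01.

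The authors also deposited a pooled pseudoreplicated list, made from both libraries as well; pseudoreplicates in general are artificial subsets of the same reads. Of the members, 2412 stood in it as identical entries, or 62.1% (95% Wilson interval 60.5 to 63.6%), against 96.6% (96.0 to 97.1%) of other peaks of like fold and all 24487 peaks of both replicates. Intervals here and below cover counting error only, and peaks are not replicates. The other way round, 1643 peaks of the replicated list were absent from that pooled list, and 1473 of them (89.7%) were members. Members in that list had a fold of 3.06 and a width of 447.5 bp in the median, and members absent from it had 2.87 and 401 bp. Their shares at promoters and in introns differed little, with intervals that overlap. Promoters held 22.9% (21.3 to 24.6%) of the members in that list and 20.0% (18 to 22.1%) of those absent from it. Introns held 40.8% (38.9 to 42.8%) and 45.1% (42.6 to 47.6%). Both lists came from the same reads, so presence in both is no independent support for a peak.

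Most members lay away from promoters. By the midpoint of the peak, 1649 members (42.4%) lay in introns of protein-coding genes, 1232 (31.7%) between genes, 846 (21.8%) at promoters, meaning no more than 1 kb from the start of a coding transcript, and 158 (4.07%) in exons. The promoter share was 21.8% (20.5 to 23.1%) in members, against 36.0% (35.4 to 36.6%) in peaks of both replicates, and these intervals lie far apart. Against other peaks of like fold it was 21.8% in members and 19.9% (18.8 to 21.1%) in those peaks, with intervals that overlap. The intron share was 42.4% (40.9 to 44.0%) in members and 45.1% (43.7 to 46.6%) in other peaks of like fold, and the intergenic share was 31.7% (30.3 to 33.2%) in members and 30.9% (29.6 to 32.3%) in other peaks of like fold. Promoter members were the stronger and narrower ones, with a median fold of 3.25 and width of 383 bp, against 2.93 and 449 bp for intron members. The median distance to the nearest coding start was 10877 bp for members and 4793 bp for peaks of both replicates, with 11990 bp for other peaks of like fold. Members were spread over all chromosomes, with between 10.4% (chromosome 18) and 13.4% (chromosome 1) of the listed peaks of each autosome, and 11.7% on chromosome X.

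**Figure D2:**
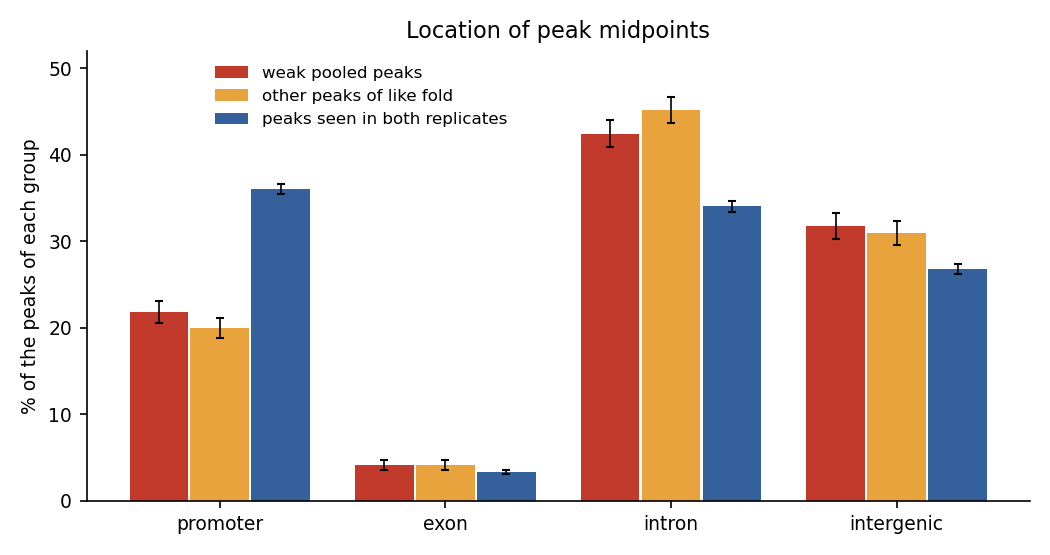
Share of peaks by location of the midpoint (%), for weak pooled peaks, other peaks of like fold and peaks seen in both replicates, with 95% Wilson intervals as bars. Members lie at promoters in 21.8% of cases, close to the 19.9% of other peaks of like fold and below the 36.0% of peaks of both replicates.

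Members often bordered a peak that a single library did call. The nearest replicate peak was 2570 bp away in the median, measured between edges. It lay within 1 kb for 1558 members (40.1%), from 1 to 10 kb away for 1196, and more than 10 kb away for 1131. A strong peak, here one that overlapped both replicates and had a fold of at least 6.31, the median of the whole list, lay within 1 kb of 20.6% of members (19.3 to 21.9%), within 10 kb of 50% and within 50 kb of 79.8%. The median distance to such a peak was 10014.5 bp over 3884 members, and the 1 member on chromosome Y had none on its chromosome. Other peaks of like fold had a strong peak within 1 kb in 21.1% of cases (19.9 to 22.3%) and within 10 kb in 52.2% (50.7 to 53.6%), with intervals that overlap those of members. The nearest other peak that was not a member lay within 1 kb of 38.7% of members (37.1 to 40.2%), of 39.4% of other peaks of like fold (38.0 to 40.8%) and of 42.0% of peaks of both replicates (41.4 to 42.6%). A close neighbour was thus about as frequent at other peaks of like fold as at members. The finer bins differed in part: a neighbour from 0.1 to 0.3 kb away was found for 19.4% of members (18.2 to 20.7%) and 16.9% of other peaks of like fold (15.9 to 18%), and one within 0.1 kb for 6.33% (5.61 to 7.14%) and 9.16% (8.35 to 10.0%).

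**Figure D3:**
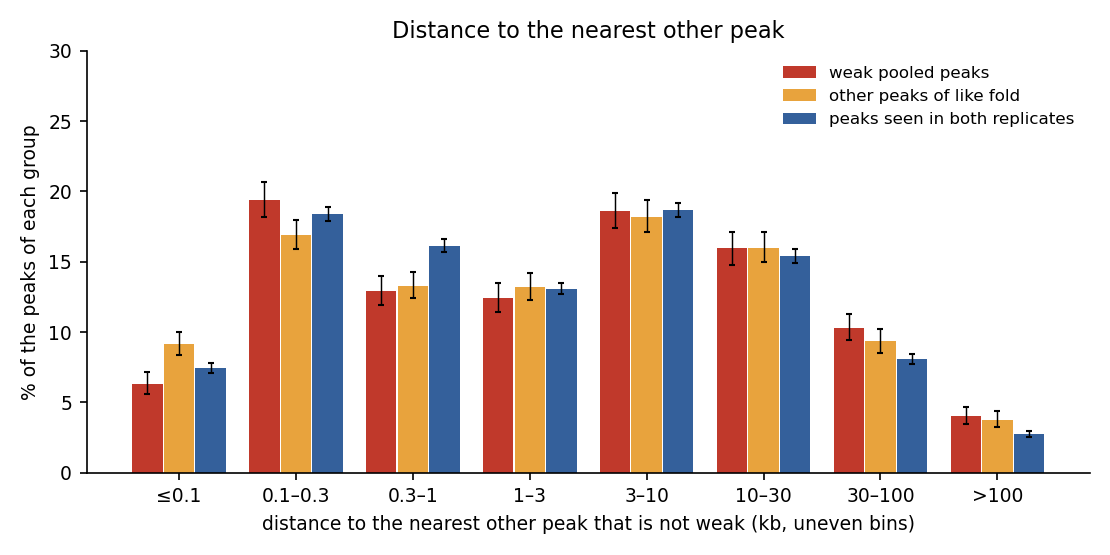
Distance from each peak to the nearest other replicated-list peak that is not weak (kb, in uneven bins), as a share of weak pooled peaks, other peaks of like fold and peaks seen in both replicates, with 95% Wilson intervals as bars. The profile of members follows that of other peaks of like fold, apart from the bins below 0.3 kb.

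The location of members changed with that distance. Promoters held 28.5% (26.3 to 30.8%) of the members within 1 kb of a replicate peak, 11.5% (9.77 to 13.4%) of those 1 to 10 kb away, and 23.4% (21.1 to 26%) of those more than 10 kb away. The members 1 to 10 kb away were most often intronic, at 48.8% (46.0 to 51.7%). Of the 1558 members within 1 kb, 1488 had a neighbour at that distance in the replicated list that was not itself a member, and the fold of the strongest such neighbour was 6.68 in the median. At this scale, 1416 members had a replicate peak on 1 side within 1 kb, and 142 had one on both sides. The 41 promoter members with one on both sides were narrow and comparatively strong, at 286 bp and a fold of 3.90 in the median, whereas the 64 intron members with one on both sides had 505.5 bp and 2.92.

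Around coding starts the summits of members fell on both sides of a dip. Of the 1090 members with a summit within 2.5 kb of a start, 18.5% lay from 500 to 250 bp upstream, 10.6% in the last 250 bp upstream, 13.7% in the first 250 bp downstream, and 16.0% from 250 to 500 bp downstream. The dip just upstream was shared by peaks of both replicates, of which 18.3% lay from 500 to 250 bp upstream and 9.90% in the last 250 bp. The first 250 bp downstream differed, with 13.7% of summits in members, 22.5% in peaks of both replicates and 13.8% in other peaks of like fold. Among summits within 1 kb of a start, 31.1% (28.1 to 34.3%) of member summits lay within 250 bp of it, against 36.7% (35.7 to 37.7%) in peaks of both replicates and 28.7% (25.9 to 31.7%) in other peaks of like fold.

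**Figure D4:**
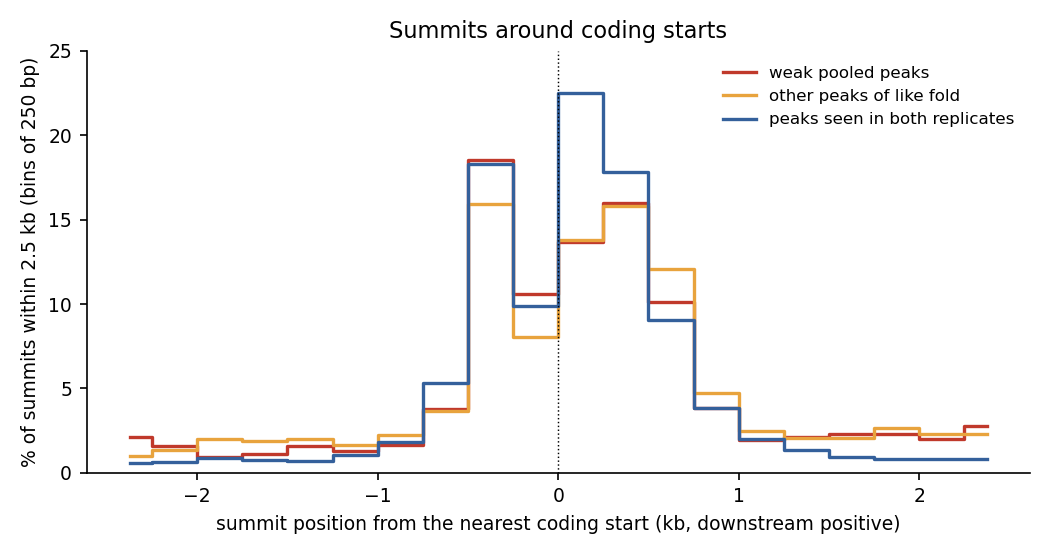
Share of summits per 250 bp bin around the nearest coding start, among summits within 2.5 kb (%, downstream positive), for weak pooled peaks, other peaks of like fold and peaks seen in both replicates. All groups dip in the last 250 bp upstream, where members have 10.6%, and peaks of both replicates have their maximum of 22.5% just downstream, where members have 13.7%.

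The members with the highest fold sat mostly at promoters. Both members with a fold of 5.01 had a −log10 q of 19.9. The first lay in an intron of 9030025P20Rik on chromosome 17 (chr17:14990227-14990865), 11756 bp upstream of the nearest coding start, that of Gm3417, and its central sequence has a second copy, as given above. The second lay 92 bp downstream of a start of Myo5a, an actin-based motor that carries organelles (chr9:75071142-75071418), 218 bp from a strong peak. Members at starts of Rab1a, a small GTPase of transport from the endoplasmic reticulum to the Golgi, and of Ate1, an arginine transferase of the N-degron pathway, had folds of 4.92 and lay 135 and 103 bp from a strong peak. The same held for Ppp2ca, the catalytic subunit of protein phosphatase 2A, and Smarcd2, a subunit of SWI/SNF remodelling complexes needed for granulocyte development, with folds of 4.73 at 172 and 123 bp from a strong peak. Apba1, a neuronal adaptor protein, had a member of fold 4.82 at 380 bp upstream of its start, absent from the pooled pseudoreplicated list. That member lay 516 bp from a replicate peak, though 404849 bp from any strong peak. The intergenic member of fold 4.82 near Mbnl1, a splicing regulator, lay 3738 bp upstream of its start and 217 bp from a strong peak. Fam120c on chromosome X (fold 4.82) and Prkg1, a cGMP-dependent protein kinase (fold 4.73), had members at promoters far from any replicate peak, at 175489 and 144874 bp. The Prkg1 member, at 1709 bp, was also among the 5 widest.

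The other 4 of the widest members lay in introns, among them introns of genes for a lysosomal protease, a myosin and a choline kinase. The widest covered 1872 bp of Lgmn, which encodes the lysosomal protease legumain, at a fold of 2.83 and 269 bp from a strong peak. A member of 1561 bp lay in Myh9, a non-muscle myosin heavy chain, at a fold of 3.06 and 4194 bp from a strong peak. One of 1504 bp lay in Zc3h3 at a fold of 3.06, and one of 1490 bp lay in Chka, a choline kinase, at a fold of 3.80 and 69 bp from a strong peak, with Tcirg1, a subunit of the vacuolar ATPase of osteoclasts and macrophages, as the gene of the nearest start.

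Of 21938 protein-coding genes, 927 (4.23%) had a member within 1 kb of a coding start. Of these 927 genes, 492 (53.1%) also had a peak of both replicates at a start, 35 had one of replicate 1 alone, 42 had one of replicate 2 alone, and 358 (38.6%) had no replicate peak at any coding start. The last class was 1.63% of all protein-coding genes. In it the nearest replicate peak lay 19957.5 bp from a start in the median, more than 10 kb away for 241 genes (67.3%), and between 1 and 2.5 kb away for 28. The weak peaks at these 358 genes had a median fold of 3.25. The highest folds after Fam120c and Prkg1 were those of Zbtb4, a zinc finger repressor that binds methylated DNA (fold 4.64) and Dag1, which encodes dystroglycan (fold 4.61). Vhl, the ubiquitin ligase subunit that marks HIF-1α for decay, had 2 members at its starts, the higher with a fold of 4.36. Zbtb4 and Dag1 were named for their fold after values were seen. Vhl was also picked after values were seen, and not by rank. Zfp991 (4.545) and Egr1 (4.45) had higher folds, and Cebpb, Krt10 and Phlpp2 had the same fold of 4.36. Genes with no replicate peak at a coding start held a member at a start in 2.80% of cases (358 of 12783), against 5.85% (492 of 8414) of genes marked in both replicates.

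Members touched few inducible genes at their starts. The 5 lists of inducible genes cover the rapid and delayed inflammatory responses, interferon-stimulated genes, the interleukin-4 response and immediate early genes, 162 genes in all. Of these, 8 had a member within 1 kb of a coding start (4.94%, against 4.23% of all protein-coding genes), which is near the background. Of the 8, 5 had no replicate peak at any coding start, or 3.09% of the 162 genes, against 1.63% of all protein-coding genes; among all 927 genes with a member at a start, 38.6% were of that kind. By list, 3 of 36 rapid inflammatory genes, 0 of 33 delayed inflammatory genes, 2 of 45 interferon-stimulated genes, 1 of 26 interleukin-4 genes and 2 of 27 immediate early genes had a member at a start.

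Among the rapid inflammatory genes, Cxcl2, Il1a and Pim1 had one. Cxcl2 encodes a chemokine that attracts neutrophils, and its member (chr5:90903581-90903956), whose sequence is printed above, spanned the 5′ end of the gene with a fold of 3.15 and a −log10 q of 6.94. It was absent from the pooled pseudoreplicated list, and neither library had a peak within 1 kb of the start, the nearest lying 2889 bp from it. A pooled peak with a fold of 18.01 covered the stretch from 7307 to 2744 bp upstream, and both libraries called peaks there. Il1a, which encodes interleukin-1 alpha, had its member (chr2:129310396-129310893) from 921 to 424 bp upstream, with a fold of 2.69 and a −log10 q of 4.40. The nearest replicate peak, 12050 bp away, belonged to a peak of fold 19.8 beyond the 3′ end of the gene. Pim1, a serine/threonine kinase gene, was different: strong peaks of folds 31.9 and 17.3 flanked its 5′ end in both libraries, and the member, with a fold of 2.07, lay from 3434 to 4160 bp downstream within 1 kb of an internal coding start and 348 bp from a replicate peak.

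The interferon-stimulated genes with a member at a start were Ciita and Zbp1. Ciita encodes the transactivator of MHC class II genes and has several promoters. Its member (chr16:10487088-10487481) had a fold of 3.06 and lay from 7029 to 7422 bp downstream of the 5′ end at an internal start, where a peak of replicate 2 alone lay 1876 bp further on. Zbp1, a sensor of Z-form nucleic acids, had its member (fold 2.88) from 879 to 1268 bp downstream of its 5′ end, 198 bp from a peak of fold 7.89 that covered the start in both libraries. Itgax, listed with the interleukin-4 response and encoding integrin CD11c, carried 2 members, with the nearest replicate peak 38450 bp away: one of 1236 bp spanned the 5′ end with a fold of 2.36, and one lay 3853 bp downstream with a fold of 3.15. Both were in the pooled pseudoreplicated list.

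Of the immediate early genes, which respond within minutes to growth factors or danger signals, Dusp5 and Egr1 had members at a start. Dusp5, a nuclear phosphatase of ERK, had its member (fold 3.62, −log10 q 9.79) from 528 to 219 bp upstream, 34845 bp from the nearest replicate peak. Egr1, a zinc finger transcription factor, had members of fold 3.25 and 4.45 at 432 and 1221 bp downstream of its 5′ end, both in the pooled pseudoreplicated list. The nearest replicate peak lay 2936 bp from the first of these, and overlapped a pooled peak of fold 6.86 upstream.

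**Figure D5:**
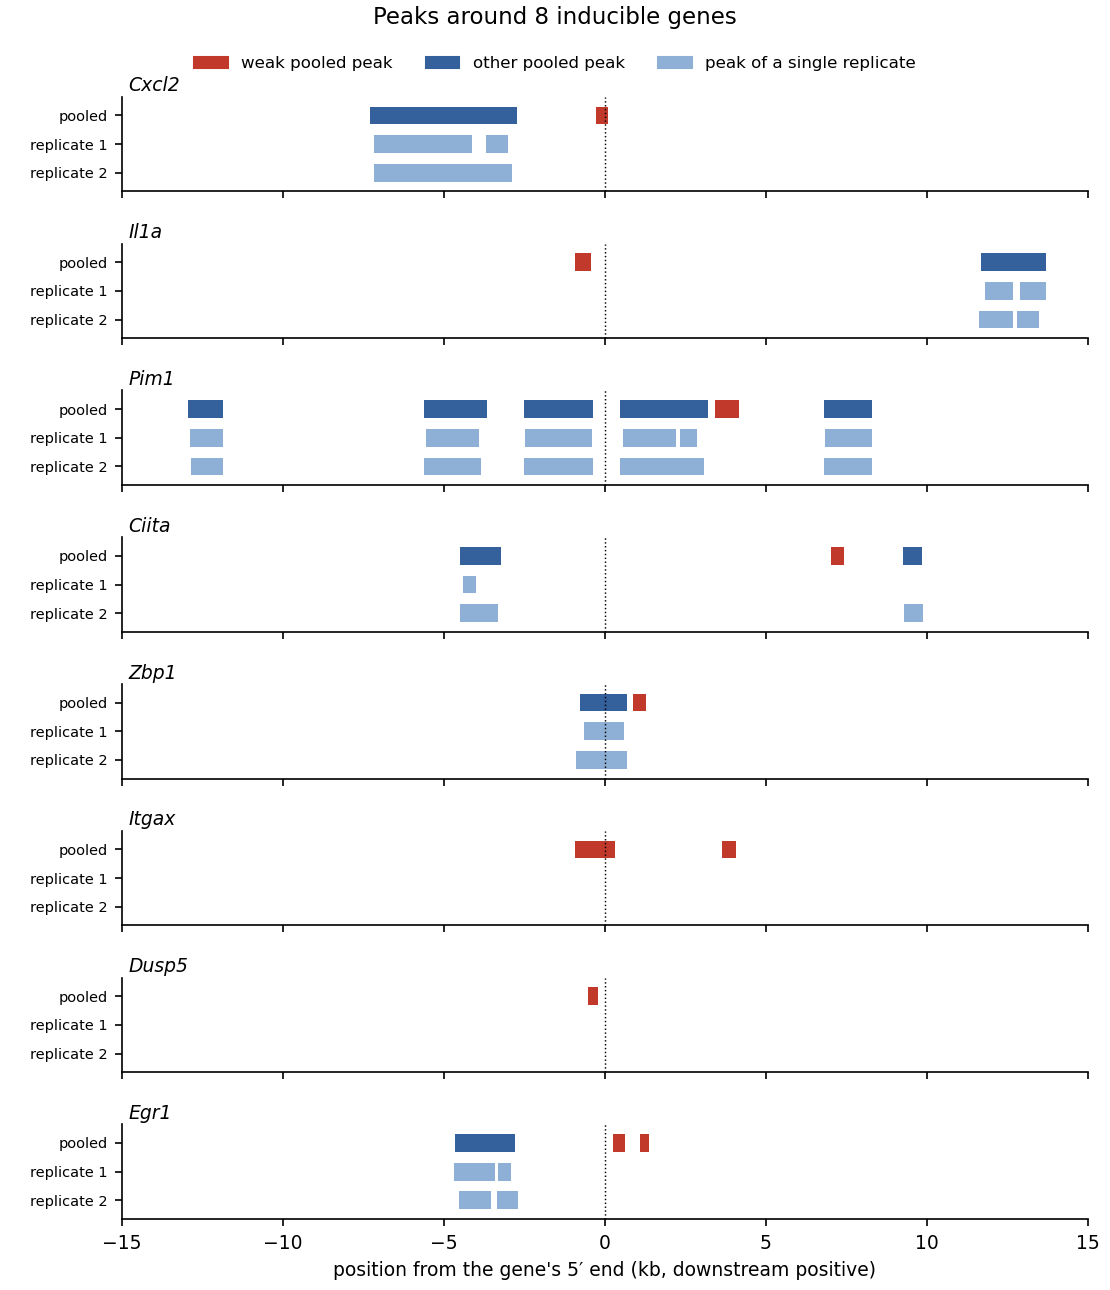
Pooled and single-replicate peaks within 15 kb of the 5′ end of the 8 inducible genes with a weak pooled peak at a coding start (horizontal axis in kb, downstream positive; dotted line at the 5′ end). Itgax and Dusp5 have weak pooled peaks alone, Cxcl2, Il1a and Egr1 have peaks of both replicates only away from the start, and at Pim1 and Zbp1 the weak peak borders such peaks.

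Within 25 kb of the 5′ end, members lay near a larger share of inducible genes than of all protein-coding genes. A member lay within 25 kb of the 5′ end of 52 of the 162 inducible genes (32.1%), against 15.1% of all protein-coding genes, and in the body of 13 (8.02%), against 9.17% of all. Other peaks of like fold gave 28.4% of inducible genes and 17.3% of all genes within 25 kb. Among all genes marked in both replicates the share with a member within 25 kb was 24.3%, against 8.73% of genes with no replicate peak at a start, and 64.8% of the inducible genes were marked in both, against 38.4% of all. What the marking of the genes contributes to the share was not tested. The share was 33.3% for rapid inflammatory, 30.3% for delayed inflammatory, 33.3% for interferon-stimulated, 23.1% for interleukin-4 and 33.3% for immediate early genes. Neighbouring genes shared members, so that the 52 genes were reached by 55 peaks, some of them counted for several genes.

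The highest members near rapid inflammatory genes were those of Socs3, an inhibitor of cytokine signalling, with a fold of 4.17 at 6196 bp downstream of its 5′ end; Csf1, the growth factor of macrophages, with 3.80 at 10479 bp upstream; Il10, an anti-inflammatory cytokine, with 3.53 at 18602 bp downstream; and Ier3, with 3.34 at 22135 bp upstream. Near delayed inflammatory genes they were those of Lcn2, an iron-sequestering lipocalin, with 3.71 at 8450 bp upstream; Acod1, the enzyme that makes itaconate, with 3.53 in an exon at 4416 bp downstream; and the formyl peptide receptors Fpr1 and Fpr2, which shared a member of 3.43. Near interferon-stimulated genes, Ifit3 and its neighbour Ifit3b shared a member of 3.63 in an exon of Ifit3. The GTPase genes Igtp and Irgm2 shared one of 2.97, and Mx1 had one of equal fold at 15718 bp upstream. Ifit3 and Ifit3b are close paralogs, and how reads of near-identical copies were placed is not given in the sources used here. Near interleukin-4 response genes, Stat6, the transcription factor of that pathway, had a member of 3.34 at 6906 bp downstream, Retnla, a secreted marker of alternative activation, had one of 3.06 at 14381 bp upstream, Flt1 one of 2.97 at 22483 bp upstream, and the lectin gene Mgl2 one of 2.78 at 15265 bp upstream. Near immediate early genes, the transcription factor gene Egr3 had one of 3.99 at 1819 bp upstream, Fosb one of 3.80 at 23160 bp upstream, Klf2 one of 3.62 at 14506 bp upstream, and Klf6 one of 3.38 at 21215 bp upstream. The members given for Lcn2 and Klf2 were promoter members of other genes, with midpoints within 1 kb of a coding start there.

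Macrophage identity genes had members in the body or within 25 kb of the 5′ end in larger shares than all protein-coding genes. Of 38 such genes, 2 had a member at a start (5.26%, against 4.23% of all genes), 13 in the body (34.2%, against 9.17%) and 16 within 25 kb of the 5′ end (42.1%, against 15.1%), and 36 of the 38 were marked in both replicates. Other peaks of like fold lay within 25 kb of 15 of the 38. What gene length contributes to the share in the body was not tested. Cebpb, a basic leucine zipper factor of the myeloid lineage, was 1 of the 2 genes with a member at a start. That member had a fold of 4.36 and a −log10 q of 14.9, was 251 bp wide, lay 860 bp downstream of the 5′ end and 156 bp from a replicate peak, and was absent from the pooled pseudoreplicated list. No replicate peak reached the 1 kb around the start, the nearest lying 1141 bp from it, and other members near the gene lay 3376 and 21530 bp downstream with folds of 2.77 and 2.78. Cd36, a scavenger receptor for fatty acids and oxidised lipoproteins, held 5 members between 31628 and 40868 bp downstream of its 5′ end, with folds from 1.96 to 3.53, at internal starts or in introns. This was the longest run of members within 10 kb of each other. Apart from it, 3218 members stood alone, and there were 283 pairs and 32 triplets. Fabp4, a fatty acid binding protein of fat cells and macrophages, had a member of fold 3.99 over its 5′ end, 4510 bp from the nearest replicate peak.

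Genes of tissue-resident macrophages and of other cell types had no member at a start. This held for all 9 lists other than the inducible and macrophage identity lists, which cover tissue-resident macrophages (23 genes), neutrophils (20), B cells (17), T and NK cells (20), dendritic cells (15), mast and stem cells (15), erythroid cells and megakaryocytes (15), fibroblasts (18) and neurons (15). At a background of 4.23% such short lists hold few members in any case. Within 25 kb of the 5′ end, where 15.1% of all protein-coding genes had a member, one was found at 6 of 23 genes of tissue-resident macrophages, 5 of 20 neutrophil, 2 of 17 B cell, 1 of 20 T and NK cell, 3 of 15 dendritic cell, 0 of 15 mast and stem cell, 2 of 15 erythroid and megakaryocyte, 3 of 18 fibroblast and 0 of 15 neuronal genes. Other peaks of like fold were found within 25 kb of 17.3% of all genes, and in the same order of lists of 5, 2, 1, 4, 4, 2, 3, 2 and 0 genes.

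In GC content, members were close to other peaks of like fold and above the surrounding sequence. In the 200 bp around the summit, the median GC content was 48.5% in members, 48.5% in other peaks of like fold, 50.5% in peaks of both replicates, and 44.5% in sequence 5 kb to either side of members that lay outside all peaks. An observed-to-expected CpG ratio of at least 0.6, a mark of CpG islands, was found in 10.2% of members and 9.33% of other peaks of like fold. Among peaks of both replicates 19.3% reached it, and 2.75% of the flanking sequence. Outside promoters, 2.20% of members reached it, against 2.73% of other peaks of like fold and 5.56% of peaks of both replicates. The sequence flanking those members reached it in 2.69% of cases. At promoters alone, 39.1% of members and 43.8% of peaks of both replicates reached it. The 265 promoter members more than 10 kb from any replicate peak were as rich in CpG as the 444 next to one, with 40.4% and 42.3%. Repeats marked by RefSeq covered a mean of 17.1% of these 200 bp windows in members and 16.5% in other peaks of like fold. The mean was 13.9% in peaks of both replicates and 29.0% in the flanking sequence.

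The short words differed in how members compared with their surroundings. The PU.1 word was found in 13.2% of members, 13.5% of peaks of both replicates and 10.7% of flanking sequences. The CTCF word was found in 13.8%, 14.7% and 11%, and GGGCGG in 5.61%, 8.70% and 2.87%, in the same order. The rare NRF1 word was found in 0.412%, 0.457% and 0.121%, and the E-box word in 2.42%, 3.11% and 2.76%. Outside promoters GGGCGG was found in 3.39% of members, 4.40% of peaks of both replicates and 2.84% of flanking sequences, and the NRF1 word in 0.132%, 0.179% and 0.119%. About as frequent in members as in flanking sequence were the AP-1, C/EBP, and IRF and ISRE words. In the same order, the AP-1 word was found in 5.35%, 5.19% and 5.52%, and the C/EBP word in 7.80%, 7.44% and 7.95%. The IRF and ISRE word was found in 6.92%, 6.37% and 6.90%, and the rare NF-kB word in 0.952%, 0.862% and 0.755%. The RUNX word was found in 15.3% of members, 13.2% of peaks of both replicates and 15.5% of flanking sequences. Outside promoters these shares were 16.6%, 15.3% and 15.1%. Among other peaks of like fold, 14.6% held the RUNX word. GC content differed between these sets, and its part in the shares was not tested. Only 12 members (0.309%) overlapped 1 of the 1015 enhancers that RefSeq lists, against 0.310% of other peaks of like fold and 0.388% of peaks of both replicates. For all 12 the element came from the VISTA collection, tested in transgenic mouse embryos. Of the 12, 2 lay in a Tlr4 intron, over a single element active in facial mesenchyme.

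The rule that chose the members turned on small gaps for a part of them only. Just inside it, 17 members lay less than 50 bp and 674 less than 200 bp from a replicate peak, and the closest were at 9 bp near 1810010D01Rik (fold 3.06), 25 bp near Csf2rb2 (2.69), 33 bp near Arhgap22 (2.88), 36 bp near Actb (2.60) and 37 bp near Scpep1 (2.97). Just outside it, 6 other peaks overlapped a replicate peak by less than 50 bp and 15 by less than 200 bp, with the smallest overlaps of 3 bp near Cd48 (2.69) and Bag3 (3.15), 12 bp near Zcchc14 (2.78), 16 bp near Nbeal2 (3.43) and 17 bp near Mctp1 (3.62). Of these, 3 of the 5 outside the rule had a higher fold than any of the 5 inside it.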

How the data were processed

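H3K27ac ChIP-seq of 2 libraries of 1 group was used as 4 peak lists (mm10) deposited by the authors. According to the deposited README texts, the replicate lists were made per library, and the replicated and pooled pseudoreplicated lists from both libraries together. The deposited fold is a linear ratio, the deposited q-value is on a −log10 scale, and the deposited summit is another value, an offset in bp. Aligner, peak caller, settings and read depth are not given in the sources used here, so a region without a peak need not lack acetylation. Folds were used within a list only.

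Overlaps, distances, locations and words were computed with Python 3.11.15, pandas 2.3.3 and pysam 0.24.0, checked on simulated intervals, with 54361 coding starts of GENCODE M21 and RefSeq GRCm38 sequence. Distances run between nearest edges. Intervals are 95% Wilson intervals. No test was run: 1 group of 2 libraries, with peaks that are not replicates, allows none. The peaks and gene lists were chosen with earlier results of these data known. Of the names in the inducible lists, 4 matched no gene symbol. Named were the 10 members highest in fold, the 5 widest, those nearest the threshold, listed inducible genes by fold, and Cebpb, Cxcl2 and Fabp4. Zbtb4, Dag1 and Vhl were added after values were seen. Of the windows chosen for printing, those with more than 30 bases of UTR are not shown, and another is not reported here. Alternatives were other overlaps, q-values, windows, lists and definitions of a strong peak.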

Additional observations from a re-analysis of the deposited data

How the results depend on the processing

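Of 55 alternative values, all planned, 31 stayed within the interval or within 1.5 times the value given above, and 24 moved; none was a test. When the rule used a single replicate list, the number of weak peaks was 5841 without replicate 1 and 6434 without replicate 2, the promoter share 22.6 to 26.2%, the share in the pooled pseudoreplicated list 73.6 to 75.5%, the median distance to a strong peak 9889.5 to 10066 bp, the genes with a weak peak at a start 1435 to 1816, and the inducible genes among them 10 to 13; these sets hold the members and more by construction. Keeping only members at least 1 kb from every replicate peak left 2327 peaks, a promoter share of 17.3%, a median of 17078.5 bp to a strong peak and 409 genes. A −log10 q of at least 5 gave a promoter share of 26.3%, a share in the pooled pseudoreplicated list of 70.2% and 5 inducible genes. An overlap of 50% of both peaks moved the share in that list to 67.7%. The promoter share was 15.9% with a window of 500 bp, 27.9% with 2.5 kb and 17.0% with the gene's 5′ end alone, and the inducible genes numbered 5 and 13 with the first pair of windows. The median distance was 4356 bp to any peak of both replicates and 27393.5 bp to the upper 25% of the list by fold. The median GC content in a window of 500 bp was 47.4%. The cause of these shifts was not tested.

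Read depth is unknown, so no limit of detection can be given for the single libraries, and the members' absence there is relative to the authors' thresholds. No paired analysis was possible because the 2 libraries form a single group.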
